A study of Homo sapiens with 12 samples.

Results

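The cyclins that drive cells through G1, the kinases they activate and the inhibitors that hold those kinases back were followed in LNCaP cells, an established androgen-responsive prostate cancer line with luminal features. The set holds 10 genes chosen by symbol: CCND1, CCND2, CCND3, CCNE1, CCNE2, CDK2, CDK4, CDK6, CDKN1B and CDKN2C. Of these, 9 had a probe set under their symbol in the platform annotation (15 probe sets in all, among 11963 named genes), and CDKN2C was not analysed here. Groups of LNCaP cultures had received miR-130a, miR-203 or miR-205 by transfection, or a scramble miRNA as the control, and total RNA was hybridised to expression arrays, 3 per group and 12 in all. The cell line, tumour type and stage are the same in all 4 groups, so the transfected RNA is the labelled difference between them. All cells come from 1 line; neither dose, nor time after transfection, nor the level each microRNA reached is given in the sources used here. The labels name the arrays of a group biological replicates without saying how they were grown, so p-values measure the spread between these samples.

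D-type cyclins bind CDK4 or CDK6 and start the phosphorylation of the retinoblastoma protein RB in response to growth signals. E-type cyclins then bind CDK2, which completes that phosphorylation, frees E2F factors and starts DNA replication. The p27 protein, made from CDKN1B, binds and restrains CDK2 complexes, while p18, made from CDKN2C, binds CDK4 and CDK6. In prostate epithelium p27 is known as a brake on growth, and CCND1 is known as a gene induced by mitogens.

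The mature sequences of miR-203 and miR-205 are shown because microRNA seeds, bases 2 to 8, set which transcripts they can pair with; the capitals mark the seed. They come from RefSeq (GRCh38.p14), which places hsa-miR-203a-3p at chr14:104117469-104117490 on the plus strand and hsa-miR-205-5p at chr1:209432166-209432187 on the plus strand. The labels name no arm, and the arms shown are those usually meant by the short names; for miR-130a this is hsa-miR-130a-3p.
hsa-miR-203a-3p: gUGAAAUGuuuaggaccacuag
hsa-miR-205-5p: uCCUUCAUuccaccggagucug
These seeds have the same base at 0 of 7 positions.

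Values are log2 expression on a scale shared by the 12 arrays, which starts at 2.36 and reaches 13.95. A log2 difference of 1 is a doubling, and differences are given ± the standard error (SE) of a limma fit over all 12 arrays. A gene is called higher or lower where its adjusted p, by Benjamini-Hochberg over all 6821 genes tested, is under 0.05, and it was tested where its brightest probe set exceeded the median of the array on 3 or more arrays. That left 7 of the 10 genes, each above the median on all 12 arrays. Across the tested genes, r was 0.992 to 0.997 for arrays of 1 group and 0.964 to 0.986 for arrays of different groups. Of 6 named luminal markers, 6 lay above the median on all 12 arrays, with KLK3, which encodes prostate-specific antigen, between 10.14 and 12.06; TP63 was not analysed here. Basal KRT5 sat at the lowest value on 12 of 12 arrays, 6 of 6 leukocyte and endothelial markers lay above the median on 0 arrays, and of 6 fibroblast and smooth muscle markers COL1A1 lay above it on 12 arrays (highest 3.46) and COL3A1 on 2. The summed linear level of the luminal markers was 4733 to 5046 in scramble arrays, 4537 to 4767 with miR-130a, 2459 to 2776 with miR-203 and 5958 to 6498 with miR-205, and its part in the results was not tested. The 3′ minus 5′ difference of ACTB, which grows as RNA degrades, ran from 2.18 to 2.66 and overlapped among the groups.

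With miR-205 nearly all the G1 genes that could be tested fell: CCND1, CCND3, CCNE2, CDK2, CDK4 and CDKN1B were lower than in scramble arrays and CCNE1 did not pass. That is 6 of 7 tested genes lower and 0 higher, where 26.1% of all tested genes were called in this comparison, 14.8% lower and 11.3% higher. With miR-130a the set split, CDKN1B falling and CCNE1 rising, and the other 5 did not pass; 2 of 7 is near the background of 23.6% (12% higher and 11.6% lower). With miR-203 only CCND3 passed among the 7, and it fell; the background was 36.2% (17.3% higher and 18.9% lower). The median difference of the 7 genes was -0.45 with miR-205, 0.16 with miR-130a and -0.14 with miR-203, where the medians of all tested genes lay at -0.00, -0.01 and 0.01. Of 22 alternative settings, 9 lost the CDKN1B call with miR-205 and 5 lost the CCNE1 call with miR-130a. The 3 comparisons with scramble use the same scramble arrays and are not independent of each other. Among the 4 groups, 6 of 7 genes differed by the moderated F-test and CCNE1 did not (limma adjusted p = 0.0532), with 60.8% of all tested genes passing. In bulk RNA, fewer cells in a phase and less RNA per cell cannot be told apart.

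**Figure D1:**
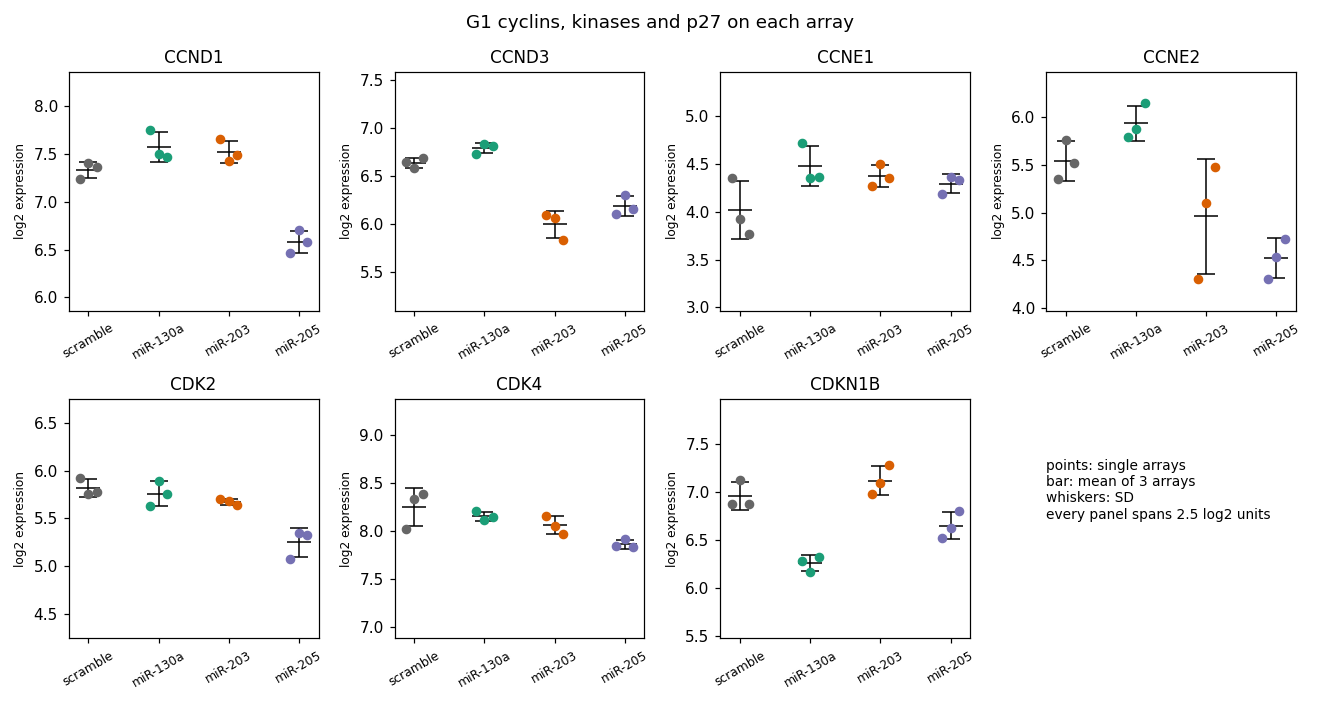
Log2 expression of the 7 tested genes on each array (y axis, log2 units, every panel spanning the same range) by group (x axis); points are single arrays, bars are means of 3 arrays and whiskers are SD. The 3 miR-205 arrays sit below the 3 scramble arrays for CCND1, CCND3, CCNE2, CDK2, CDK4 and CDKN1B, and the 3 miR-130a arrays lie lowest for CDKN1B. The gap between miR-205 and scramble is narrowest for CDKN1B, at 0.08 log2. The share of all tested genes whose arrays separate in this way is not given here.

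CCND1 encodes cyclin D1, the D-type cyclin that most directly follows growth factor signals. On its brightest probe set, 208712_at, the scramble arrays read 7.24, 7.41 and 7.36, the miR-130a arrays 7.76, 7.50 and 7.47, the miR-203 arrays 7.66, 7.43 and 7.49, and the miR-205 arrays 6.47, 6.70 and 6.58. All 3 miR-205 arrays lay below all other arrays, and the miR-130a and miR-203 arrays overlapped each other just above scramble. The fall with miR-205 was 0.75 ± 0.10 log2, a 1.69-fold lower level, with limma adjusted p = 9.84e-05. With miR-130a the difference was 0.24 ± 0.10 and did not pass (adjusted p = 0.0927), and with miR-203 it was 0.19 ± 0.10 and did not pass (adjusted p = 0.144).

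The second CCND1 probe set, 208711_s_at, gave a larger difference for miR-130a and miR-203. Its scramble arrays read 6.999, 6.89 and 7.01, the miR-130a arrays 7.54, 7.37 and 7.32, the miR-203 arrays 7.62, 7.46 and 7.37, and the miR-205 arrays 6.53, 6.26 and 6.30. Here both miR-130a and miR-203 lay wholly above scramble and miR-205 wholly below it. In the limma fit over all 10067 probe sets tested, this probe set rose by 0.44 ± 0.09 with miR-130a (adjusted p = 0.00481) and by 0.51 ± 0.09 with miR-203 (adjusted p = 0.00115), and fell by 0.61 ± 0.09 with miR-205 (adjusted p = 0.000503). The 2 probe sets therefore share the fall with miR-205, while the rise with the other microRNAs passed on 1 of them. With the mean of both, CCND1 was at 0.34 with miR-130a (adjusted p = 0.00557) and at 0.35 with miR-203 (adjusted p = 0.003).

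CCND2, encoding cyclin D2, was above the array median on 0 of 12 arrays and was not tested. Its 3 probe sets sat at the lowest value of the table on 11, 12 and 12 of the 12 arrays, and the highest reading of any was 2.36. No comparison between groups can be read from it.

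CCND3, encoding cyclin D3, was lower with both miR-203 and miR-205. Its scramble arrays read 6.65, 6.58 and 6.68, the miR-130a arrays 6.73, 6.84 and 6.81, the miR-203 arrays 6.09, 6.06 and 5.83, and the miR-205 arrays 6.10, 6.31 and 6.15. The miR-203 and miR-205 arrays all lay below the scramble arrays, and the miR-130a arrays lay just above them. CCND3 fell by 0.64 ± 0.08 with miR-203 (1.56-fold, limma adjusted p = 7.71e-05) and by 0.45 ± 0.08 with miR-205 (1.37-fold, adjusted p = 0.00151). With miR-130a it differed by 0.16 ± 0.08 and did not pass (adjusted p = 0.206).

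CCNE1 and CCNE2 encode the E-type cyclins, cyclin E1 and cyclin E2, which partner CDK2 at the start of S phase. For CCNE1 the scramble arrays read 4.36, 3.92 and 3.77, the miR-130a arrays 4.72, 4.36 and 4.36, the miR-203 arrays 4.27, 4.50 and 4.35, and the miR-205 arrays 4.18, 4.36 and 4.33. Scramble replicate 1 lay among the microRNA arrays, and the other scramble arrays lay below them all. CCNE1 rose by 0.46 ± 0.14 with miR-130a (1.38-fold, limma adjusted p = 0.0299), although the lowest miR-130a reading equals the highest scramble reading. This call ended when miR-130a replicate 1, scramble replicate 2 or scramble replicate 3 was left out, which gave adjusted p = 0.13, 0.0935 and 0.134 in that order. It also ended when the model held no more than the 6 arrays compared (0.0969) and when dim probe sets were not filtered (0.122). With miR-203 it differed by 0.36 ± 0.14 (adjusted p = 0.0624) and with miR-205 by 0.28 ± 0.14 (adjusted p = 0.172), and neither passed. Without scramble replicate 1 these became 0.53 (adjusted p = 0.00545) and 0.45 (adjusted p = 0.0178), and CCNE1 also passed with miR-203 when miR-130a replicate 1 was left out (0.0495), when arrays were weighted (0.00554) and after quantile normalization (0.0327).

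CCNE2 fell with miR-205 on the brighter of its 2 tested probe sets. On probe set 205034_at the scramble arrays read 5.35, 5.76 and 5.52, the miR-130a arrays 5.79, 5.87 and 6.14, the miR-203 arrays 4.30, 5.10 and 5.48, and the miR-205 arrays 4.30, 4.54 and 4.72. The miR-205 arrays lay below all scramble arrays, and the miR-203 arrays spread from the miR-205 level up to the scramble level (SD 0.60, n = 3, against 0.21 in scramble). CCNE2 fell by 1.02 ± 0.23 with miR-205, a 2.03-fold lower level (limma adjusted p = 0.00552). With miR-203 it differed by -0.58 ± 0.23 and did not pass (adjusted p = 0.0653), and without miR-203 replicate 3 it was at -0.84 and passed (adjusted p = 0.00977), as it did at -0.58 with replicate numbers as a block (0.0166). With miR-130a it differed by 0.39 ± 0.23 and did not pass (adjusted p = 0.246), although the 2 groups of arrays did not overlap.

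The dimmer CCNE2 probe set, 211814_s_at, gave another order of calls. It read 3.01, 3.11 and 2.95 in scramble arrays, 3.82, 4.03 and 3.13 with miR-130a, 2.95, 2.93 and 2.95 with miR-203, and 2.68, 2.95 and 2.95 with miR-205. Only the miR-130a arrays stood apart here, all above the other groups, and the values of the other groups lay close to the array medians of 2.76 to 2.78. It rose by 0.64 ± 0.17 with miR-130a (limma adjusted p = 0.0183) and differed by -0.16 ± 0.17 with miR-205 (adjusted p = 0.551). With the mean of both probe sets, the CCNE2 difference was -0.59 with miR-205 (adjusted p = 0.00816) and 0.52 with miR-130a (adjusted p = 0.0187). Under miR-205 the E-type cyclins thus stood at -1.02 for CCNE2 and 0.28 for CCNE1, a contrast between genes that was not tested.

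**Figure D2:**
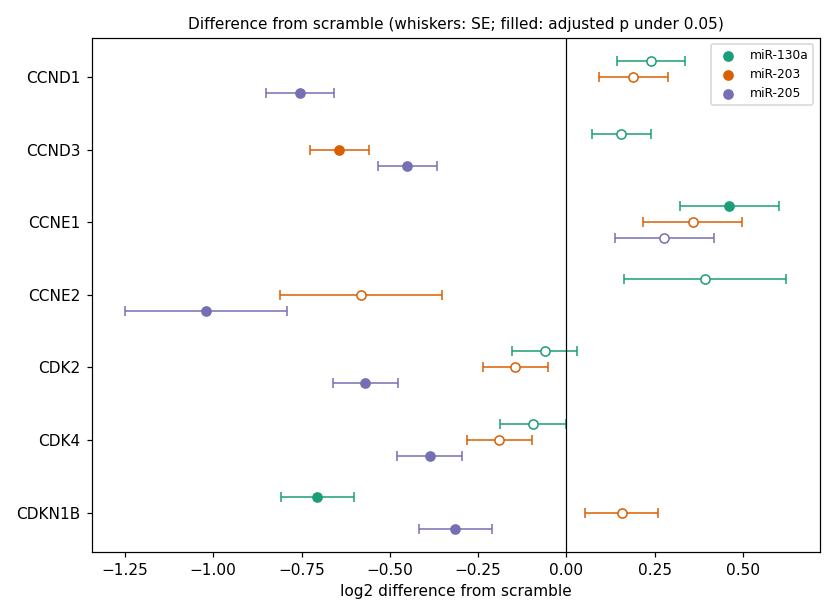
Log2 difference from scramble (x axis) for the 7 tested genes (y axis) under each microRNA; points are limma estimates over 3 arrays per group, whiskers are SE, and filled points passed an adjusted p of 0.05. The miR-205 estimates lie left of 0 for every gene but CCNE1, and CDKN1B is the only filled point left of 0 for miR-130a.

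CDK4 and CDK2 encode the kinases that D-type and E-type cyclins activate. CDK4 read 8.03, 8.34 and 8.39 in scramble arrays, 8.21, 8.11 and 8.14 with miR-130a, 8.16, 8.05 and 7.97 with miR-203, and 7.84, 7.92 and 7.83 with miR-205. The miR-205 arrays lay below all the others, the nearest being a miR-203 array. CDK4 fell by 0.39 ± 0.09 with miR-205 (1.31-fold, limma adjusted p = 0.00787). It differed by -0.19 ± 0.09 with miR-203 (adjusted p = 0.128) and by -0.09 ± 0.09 with miR-130a (adjusted p = 0.509), neither of which passed. Without scramble replicate 1 the miR-203 difference was -0.30 and passed (adjusted p = 0.0103), as it did when arrays were weighted (-0.25, adjusted p = 0.022).

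CDK2 read 5.92, 5.75 and 5.78 in scramble arrays on probe set 204252_at, 5.63, 5.89 and 5.76 with miR-130a, 5.70, 5.68 and 5.64 with miR-203, and 5.07, 5.34 and 5.33 with miR-205. All 3 miR-205 arrays lay below all 9 other arrays, and the miR-203 arrays lay just below the scramble arrays. CDK2 fell by 0.57 ± 0.09 with miR-205 (1.48-fold, limma adjusted p = 0.000547). The differences of -0.14 ± 0.09 with miR-203 (adjusted p = 0.241) and -0.06 ± 0.09 with miR-130a (adjusted p = 0.686) did not pass. A second probe set, 211804_s_at, was lower on all 3 miR-205 arrays (3.14, 3.48 and 3.35) than in scramble (3.51, 3.78 and 3.75), at -0.36 ± 0.13 with adjusted p = 0.0679 over all probe sets. The third, 211803_at, sat at the lowest value on 11 of 12 arrays, so the mean of all 3 probe sets gave a smaller fall of 0.30 (adjusted p = 0.00848). CDK6, the other kinase that D-type cyclins bind, sat at the lowest value on 10 of 12 arrays and never exceeded 2.39, so it gave no comparison.

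The upstream sequence of CDK4 is shown because the gene is a described target of MYC, which binds the letters CACGTG, and MYC was measured on the same arrays. The window holds the 250 bases before the RefSeq start of CDK4, chr12:57752311-57752560 on the minus strand of GRCh38.p14, with each CACGTG in capitals.
CDK4: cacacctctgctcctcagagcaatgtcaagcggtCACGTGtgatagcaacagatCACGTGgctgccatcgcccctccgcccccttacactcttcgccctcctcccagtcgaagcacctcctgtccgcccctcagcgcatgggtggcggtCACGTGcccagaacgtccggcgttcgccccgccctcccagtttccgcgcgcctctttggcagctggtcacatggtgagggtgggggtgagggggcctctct
CACGTG, which reads the same on both strands, starts 216, 196 and 101 bases before the start. It occurs at least once in 6.34% of 35116 such windows and at least 3 times in 0.0797%. The E2F words TTTGGCGC, TTTCCCGC, TTTGCCGC and TTTCGCGC, searched on both strands, are found in 2.79% of windows. They are found in 0 of the 11 windows of the 6 member genes with a window. At so small a share, 11 windows are too few to read a lack from. No window of CCND1, CCND2, CCNE2 or CDK2 was searched. MYC itself rose by 0.67 ± 0.10 with miR-205 (limma adjusted p = 0.000333), on the arrays on which CDK4 fell, and by 0.37 ± 0.10 with miR-203 (adjusted p = 0.0126). A link between MYC and CDK4 in these cells was not tested.

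CDKN1B, encoding the CDK2 inhibitor p27, was the member that fell most with miR-130a. Its scramble arrays read 6.88, 7.13 and 6.88, the miR-130a arrays 6.28, 6.17 and 6.33, the miR-203 arrays 6.98, 7.10 and 7.28, and the miR-205 arrays 6.52, 6.62 and 6.80. The miR-130a arrays lay below all others, the miR-205 arrays came next, and the miR-203 and scramble arrays overlapped. CDKN1B fell by 0.71 ± 0.10 with miR-130a (1.63-fold, limma adjusted p = 0.000309), under each alternative run. It fell by 0.31 ± 0.10 with miR-205 (1.24-fold, adjusted p = 0.0389), a call lost on leaving out any 1 of 7 arrays. These were scramble replicate 2 (0.149) and 3 (0.0508), miR-205 replicate 1 (0.148) and 2 (0.0913), miR-130a replicate 1 (0.0513) and 3 (0.0502) and miR-203 replicate 2 (0.0511), each with its adjusted p. It was also lost with the 6 compared arrays alone (0.0759) and when dim probe sets were not filtered (0.107). With miR-203 the difference was 0.16 ± 0.10 (adjusted p = 0.258). SKP2, the ubiquitin ligase subunit that marks p27 protein for degradation, rose by 0.86 ± 0.13 with miR-130a (adjusted p = 0.000518) and fell by 0.61 ± 0.13 with miR-205 (adjusted p = 0.00465); protein was not measured.

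**Figure D3:**
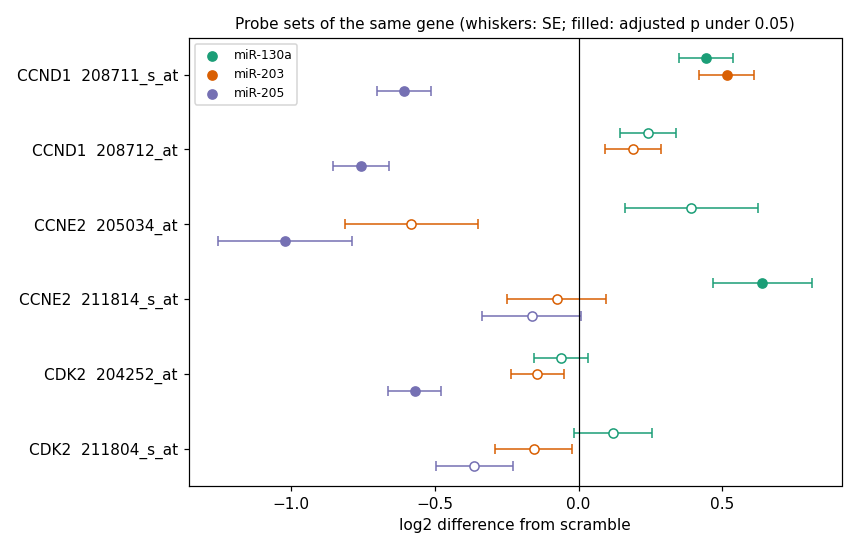
Log2 difference from scramble (x axis) for both tested probe sets of CCND1, CCNE2 and CDK2 (y axis), fitted over all probe sets; points are estimates over 3 arrays per group, whiskers are SE, and filled points passed an adjusted p of 0.05. Both CCND1 probe sets fall with miR-205. The CCNE2 estimates have the same direction on both probe sets with miR-205 and with miR-130a. The CCNE2 fall with miR-205 passed only on 205034_at, and the rise with miR-130a only on 211814_s_at.

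Counted by probe set, 10 of the 15 passed the filter on brightness. With miR-205, 7 of these 10 were lower and 0 higher, where 24.1% of all tested probe sets were called, 12.8% lower and 11.3% higher. With miR-130a 3 were higher and 1 lower against a background of 21.3% (11.5% higher, 9.82% lower), and with miR-203 1 was higher and 1 lower against 33.9% (16% higher, 18% lower). The additional calls beyond the gene counts came from 208711_s_at of CCND1 in all 3 comparisons and from 211814_s_at of CCNE2 with miR-130a. Between miR-130a and miR-205 8 were higher and 1 lower, against 31% of all tested probe sets (16.3% higher, 14.7% lower). Between miR-130a and miR-203 3 were higher and 1 lower, against 38.2% (20.7% higher, 17.5% lower). Between miR-203 and miR-205 4 were higher and 0 lower, against 35.5% (18.1% higher, 17.4% lower).

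Direct comparison of the microRNAs set miR-205 apart for CCND1, and for CDK2 on its brightest probe set. CCND1 was higher with miR-130a than with miR-205 by 1.00 ± 0.10 (limma adjusted p = 5.19e-06) and higher with miR-203 than with miR-205 by 0.94 ± 0.10 (adjusted p = 7.66e-06). Between miR-130a and miR-203 it differed by 0.05 ± 0.10, with a 95% interval from -0.16 to 0.26. CDK2 was higher with miR-130a than with miR-205 by 0.51 ± 0.09 (adjusted p = 0.000842) and higher with miR-203 than with miR-205 by 0.42 ± 0.09 (adjusted p = 0.00275); the mean of its probe sets gave 0.32 and 0.20. On the second tested CDK2 probe set, 211804_s_at, miR-130a was above miR-205 by 0.48 ± 0.13 (limma adjusted p = 0.0153 over all probe sets). There the difference of 0.21 ± 0.13 between miR-203 and miR-205 did not pass (adjusted p = 0.257), and the arrays overlapped. For both genes the miR-130a and miR-203 arrays overlapped.

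For CCND3 and CCNE2 it was miR-130a that stood above both other microRNAs. CCND3 was higher with miR-130a than with miR-203 by 0.80 ± 0.08 (limma adjusted p = 8.73e-06) and than with miR-205 by 0.61 ± 0.08 (adjusted p = 0.000101), and between miR-203 and miR-205 the difference of -0.19 ± 0.08 did not pass (adjusted p = 0.0879). CCNE2 was higher with miR-130a than with miR-205 by 1.41 ± 0.23 (2.66-fold, adjusted p = 0.000399) and than with miR-203 by 0.97 ± 0.23 (adjusted p = 0.00436), or 0.65 without miR-203 replicate 1. Between miR-203 and miR-205 CCNE2 differed by 0.44 ± 0.23 (adjusted p = 0.155), and by 0.77 without miR-203 replicate 1 (adjusted p = 0.0034).

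CDKN1B separated all 3 microRNAs. It was lower with miR-130a than with miR-203 by 0.86 on the log2 scale (SE 0.10, limma adjusted p = 2.6e-05, 1.82-fold) and lower than with miR-205 by 0.39 (SE 0.10, adjusted p = 0.0102, or 0.0513 without miR-205 replicate 3), and it was higher with miR-203 than with miR-205 by 0.47 ± 0.10 (adjusted p = 0.00298). CDK4 was higher with miR-130a than with miR-205 by 0.29 ± 0.09 (adjusted p = 0.0271), a call lost on leaving out any 1 of the 3 miR-130a arrays or miR-205 replicate 1 or 3, and when dim probe sets were not filtered (adjusted p from 0.0503 to 0.0867). Its difference between miR-203 and miR-205 was 0.20 ± 0.09 (adjusted p = 0.114), and it passed when scramble replicate 1 was left out (0.0395) and when arrays were weighted (0.0465). CCNE1 did not differ past the threshold between any microRNAs, its largest difference being 0.18 ± 0.14 between miR-130a and miR-205 (95% interval from -0.12 to 0.49). Between miR-130a and miR-205, 5 of 7 genes were higher and 1 lower with miR-130a, where 33.6% of all tested genes were called (18.2% higher, 15.4% lower). Between miR-130a and miR-203, 2 were higher and 1 lower with miR-130a, where 41.2% were called (21.1% higher, 20.1% lower). Between miR-203 and miR-205, 3 were higher and 0 lower with miR-203, where 37.9% were called (21% higher, 16.9% lower).

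The other regulators of the G1 to S step had calls in both directions in each comparison with scramble. More of the calls were lower with miR-205, and more were higher with miR-130a and with miR-203. Over all tested genes, 14.8% were lower and 11.3% higher with miR-205. These shares were 11.6% lower and 12% higher with miR-130a, and 18.9% lower and 17.3% higher with miR-203. Of 41 listed genes 37 had a probe set and 30 were tested. With miR-205, 7 fell and 2 rose (30% of the 30 called, against 26.1% of all tested genes; median -0.02), among them CCNA2, the S phase cyclin that follows cyclin E, at -1.19 ± 0.24, CKS1B, a cofactor of SKP2, at -1.06 ± 0.13, and CDC25A, the phosphatase that activates CDK2, at -0.79 ± 0.08. With miR-130a, 8 rose and 2 fell (33.3% against 23.6%; median 0.09), among them CDC25A at 0.94 ± 0.08, SKP2, and CDKN2A, which encodes the CDK4 inhibitor p16 and ARF, at 0.76 ± 0.11. With miR-203, 8 rose and 2 fell (33.3% against 36.2%; median 0.06), with the repressive E2F members E2F6 at 0.58 ± 0.09 and E2F5 at 0.52 ± 0.10, the CDK-activating kinase subunit MNAT1 at -0.48 ± 0.11 and CDKN1A, which encodes the CDK inhibitor p21, at 0.46 ± 0.12. The 10 calls with miR-203 became 5 with the 6 compared arrays alone and 6 when dim probe sets were not filtered. The shares of all tested genes called under those settings are not given here.

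The listed S phase genes, which include genes that license replication origins, had 1 direction of calls in each comparison with scramble. This list, like the members and the other regulators, was chosen with earlier results of these data known. Its counts are therefore a description, and the shares of all tested genes beside them are those of the main fit. Of 30 listed, 28 were tested. With miR-205, 24 fell and 0 rose (85.7% of the 28, where 14.8% of all tested genes fell; median -0.97), led by the helicase subunit MCM5 at -1.64 ± 0.16, GINS2 at -1.34 ± 0.16, thymidine kinase TK1 at -1.33 ± 0.15 and the ribonucleotide reductase subunit RRM2 at -1.27 ± 0.15. With miR-203, 19 fell and 0 rose (67.9%, where 18.9% of all tested genes fell; median -0.44), and 12 fell when dim probe sets were not filtered; RRM2 was at -1.34 ± 0.15 and the origin licensing factor CDC6 at -0.77 ± 0.15. With miR-130a, 15 rose and 0 fell (53.6%, where 12% of all tested genes rose; median 0.42), or 9 rose when dim probe sets were not filtered; GMNN, encoding the licensing inhibitor geminin, was at 0.83 ± 0.12 and MCM2 at 0.80 ± 0.10.

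**Figure D4:**
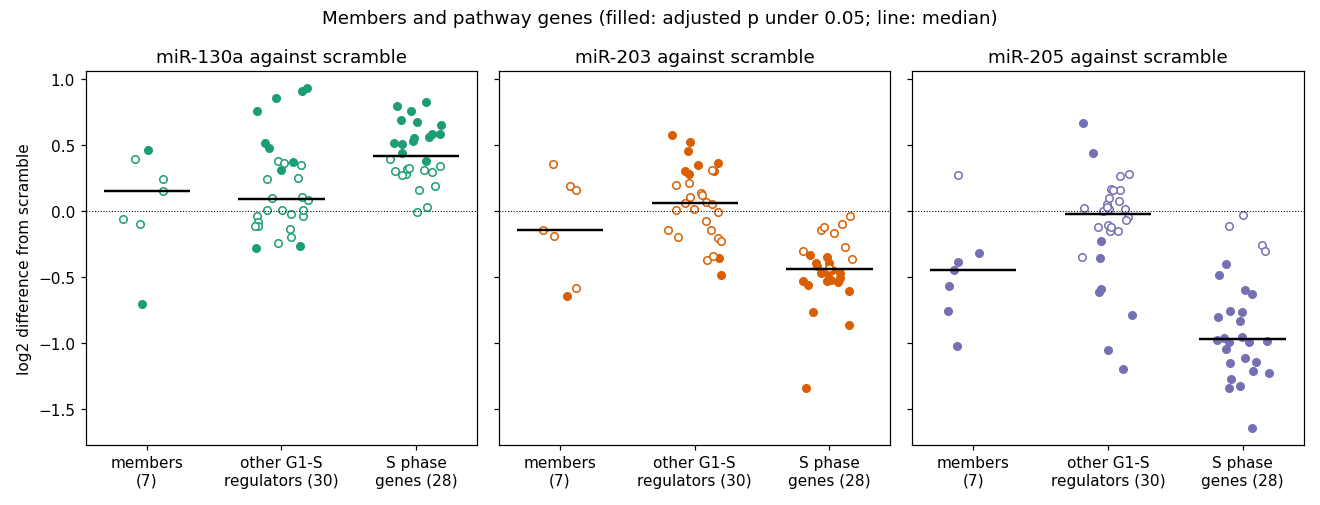
Log2 difference from scramble (y axis) of the 7 tested members, 30 other G1-S regulators and 28 S phase genes (x axis) under each microRNA; points are genes, filled where the adjusted p was under 0.05, and lines are medians. The S phase medians are 0.42, -0.44 and -0.97 for miR-130a, miR-203 and miR-205, and the members' medians are 0.16, -0.14 and -0.45.

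The genes whose log2 values followed each member most closely over the 12 arrays were found among the other 6820 tested genes, as a description of arrays that share their groups. CCNE2 lay closest to the mitotic spindle gene DLGAP5 (Pearson r = 0.966, Spearman rho = 0.949) and to RFC3, a subunit of the replication clamp loader (r = 0.963, rho = 0.97). CCND1 lay closest to NUDT21, an mRNA 3′ end processing factor (r = 0.97, rho = 0.804), and the DNA repair gene TDP1 (r = 0.965, rho = 0.867). CCND3 lay closest to the tubulin gene TUBA1B (r = 0.963, rho = 0.867) and GPS2 (r = 0.958, rho = 0.895), and CDK2 to the mitochondrial import gene TIMM10 (r = 0.969, rho = 0.893) and R3HCC1 (r = 0.959, rho = 0.916). For CDK4 these were GANAB, a glucosidase of the endoplasmic reticulum (r = 0.932, rho = 0.958), and CIB1 (r = 0.929, rho = 0.895), and for CDKN1B the esterase gene ESD (r = 0.945, rho = 0.951) and GLRX5 (r = 0.929, rho = 0.916). CCNE1 had the loosest match among the 7, RBM25 with r = 0.903 and rho = 0.515, followed by the RNA polymerase II subunit gene POLR2B (r = 0.895, rho = 0.736).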

How the data were processed

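The deposited table holds 1 log2 value per probe set and array (22277 probe sets, 12 arrays). The submitters' processing notes list R 2.9.0, RMA and limma without a role; the background method is not stated there. Array medians lie between 2.76 and 2.78, and the number of arrays limits the precision. The platform annotation gave 19070 probe sets 1 gene symbol, 1043 several and 2164 none; only the first were used, and 19058 were found in the RefSeq table with 0 symbols changed.

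Each gene was represented by the probe set with the highest mean. Group means were fitted to all 12 arrays in limma 3.58.1 (R 4.3.3) with eBayes moderation, giving 8 residual and 4.84 prior degrees of freedom, and the procedure was tested on simulated data; probe sets were fitted in the same way. Of 6821 genes tested, 1425 (20.9%) have exactly equal values within a group, which narrows their spread; no tested member does. The members and lists were chosen with earlier results of these data known. Named genes are all members, up to 4 per list and comparison with scramble (the largest calls without overlap), and the 2 genes most correlated with each member; the text names a part. Same-numbered replicates deviated together most between miR-203 and miR-205 (correlations of 0.171, 0.105 and 0.313). Weaker correlations above 0 were found between miR-130a and miR-203 (0.094, 0.0467 and 0.0965) and between miR-130a and miR-205 (0.0648, 0.0755 and 0.0285). In the comparisons with scramble they ran from -0.112 to 0.0404. The labels state no pairing. The main fit held no replicate block, so its p-values use no pairing by number, and a block was run as an alternative.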

Additional observations from a re-analysis of the deposited data

How the results depend on the processing

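Each member and comparison was recomputed under 22 alternatives, 12 of which leave out 1 array and 10 of which change another choice. Of these 924 values, 878 kept their direction and their side of the threshold, 21 lost a call, 18 gained one and 7 changed sign. Members called with miR-203 against scramble went from 1 to 2 under quantile normalization, the probe set of largest variance, the mean of probe sets and the replicate block, and to 3 with array weights. With the probe set of largest variance, CCND1 was also called with miR-130a against scramble (0.44, limma adjusted p = 0.00494), beside CCNE1 and CDKN1B. Members called in that comparison went from 2 to 4 with the mean of probe sets. They went to 1 with no filter on dim probe sets or with only the 6 arrays compared, and member probe sets called went from 4 to 2 under those last settings. With no filter, which tests more genes, S phase genes called went to 9 with miR-130a and to 12 with miR-203, and other G1-S regulators called with miR-203 to 6, or 5 with only the 6 arrays compared. With array weights, member probe sets called with miR-203 rose to 4 and members called between miR-203 and miR-205 to 5. The share of all tested genes called under each alternative is not given here, so these counts cannot be set against it. Except where an alternative's own construction shows it, the cause of a change was not tested.

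The signs that turned belong to differences near 0 that were not called. For CCND1, miR-130a minus miR-203 was -0.0698 with the probe set of largest variance and -0.0097 with the mean of probe sets. For CCNE1 the same difference was -0.011 with array weights, and for CDK2, miR-130a minus scramble was 0.020 with the mean of probe sets. Leaving out 1 array each gave -0.0399 to 0.12 for CCND1 and -0.015 to 0.17 for CCNE1 between miR-130a and miR-203, and -0.13 to 0.0052 for CDK2 with miR-130a.

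Leaving out 1 array each, members called ranged from 1 to 2 with miR-130a, 1 to 3 with miR-203 and 5 to 7 with miR-205. With all 12 arrays, 23.6%, 36.2% and 26.1% of all tested genes were called in these comparisons. The shares with 1 array left out are not given here, and whether the members' counts move with them was not tested. With miR-130a the count was 1 without miR-130a replicate 1 or scramble replicate 2 or 3. With miR-203 it was 2 without miR-130a replicate 1 or miR-203 replicate 3, and 3 without scramble replicate 1. Member probe sets called ranged from 2 to 4 with miR-130a (2 without miR-130a replicate 1 or scramble replicate 3) and 2 to 4 with miR-203 (4 without scramble replicate 1). With the replicate number as a block, the 3 members called between miR-203 and miR-205 stayed called, and of the calls described here CCNE2 with miR-203 changed (adjusted p = 0.0166 by limma). Over all arrays, 9 of 12 correlated best with an array of their own number.

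CCND2, CDK6 and 1 CDK2 probe set lie at the bottom of the scale, where no difference can be read, and with 3 arrays per group a p that misses the threshold leaves the intervals given.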
